A study of Mus musculus with 12 samples.

Results

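The genes described here are 10 early response genes outside the AP-1 family: the zinc finger factors Egr1, Egr2 and Egr3, the immediate early response genes Ier2, Ier3 and Ier5, and Csrnp1, Btg2, Klf6 and Myc. They were chosen by name, and they are 10 of the 22180 genes that the array measures with a probeset of 1 gene symbol. Each of the 10 has 1 such probeset, each passed the filter on low values, and the lowest value of any of them on any array was 5.45 on the log2 scale, against a filter at a mean of 5.32. The tissue was gastrocnemius, the large muscle of the calf, and its RNA was measured on Affymetrix Mouse Gene 2.0 ST arrays, whose probes are spread along each transcript.

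There were 12 arrays in 4 groups of 3. Muscle of exercised ERRα-null and exercised wild-type mice was taken 2 h after they had run on a treadmill until exhausted, and sedentary ERRα-null and sedentary wild-type mice had not run. ERRα is the orphan nuclear receptor made from Esrra and drives genes of mitochondrial energy metabolism. All groups are labelled as FVB strain, male and 2 to 3 months of age. The labels name the mutants ERRa-null without saying how the allele was made, and they call the 3 arrays of a group biological replicates.

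Immediate early genes are transcribed within minutes of a stimulus by factors that already sit in the cell, chiefly serum response factor with its partners and CREB, and they need no new protein for this. Their mRNAs are short-lived, so that levels peak and fall back quickly, and many of the products are transcription factors or brakes on growth that shape the slower second wave of genes. In skeletal muscle, contraction raises calcium and activates MAP kinases, both of which feed into this response.

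The arrays were checked against their labels before the genes were compared. Esrra averaged 6.72 ± 0.14 on exercised ERRα-null and 7.50 ± 0.12 on exercised wild-type arrays, and 6.71 ± 0.17 on sedentary ERRα-null and 7.53 ± 0.11 on sedentary wild-type arrays (SD, n = 3 each), with no overlap between genotypes. The mean of 6 skeletal muscle markers ran from 12.84 to 13.04 over the 12 arrays. The titles give the groups used here, but the source name gives another exercise state for 6 arrays, those of the sedentary ERRα-null and the exercised wild-type group. Xist, the RNA that coats the silenced X chromosome in females, was at 7.82 and 7.83 on exercised ERRα-null replicates 2 and 3 and at 7.90 on exercised wild-type replicate 3, against 4.30 or less on the other arrays, although all are labelled male. On the same 3 arrays, in that order, the Y-linked Eif2s3y was at 4.97, 5.20 and 5.02, against 7.83 or more on the others. Kdm5d and Uty, also Y-linked, were likewise low there. By these transcripts the 3 arrays are female in profile. All 3 are exercised arrays and none is sedentary, so that sex and exercise are partly confounded. The part of sex in the exercise differences was not tested. The B cell marker Cd79a was at 8.95 on sedentary ERRα-null replicate 1 and at 7.97 and 7.78 on sedentary wild-type replicates 2 and 3, against 5.47 or less elsewhere. The first of these arrays also held the seminal vesicle transcript Svs5 at 12.98. The brown fat transcript Ucp1 did not exceed 6.24 on an exercised array. It was at 7.76, 5.01 and 9.43 on the sedentary ERRα-null and 4.67, 10.82 and 10.93 on the sedentary wild-type arrays. The liver transcript Alb ran from 6.99 to 9.68 on exercised ERRα-null and 7.22 to 10.64 on exercised wild-type arrays, and it was at 10.58, 11.83 and 6.24 on the sedentary ERRα-null and 12.82, 9.97 and 6.46 on the sedentary wild-type arrays. The neutrophil transcripts Retnlg and S100a8 were at 6.68 and 5.45 on exercised wild-type replicate 2, against at most 4.22 and 3.68 elsewhere. The mean of the 4 measured of 6 B cell markers ran from 5.56 to 5.90 on exercised ERRα-null and 6.23 to 6.57 on exercised wild-type arrays, and from 6.01 to 8.68 on sedentary ERRα-null and 6.38 to 8.18 on sedentary wild-type arrays. Of these 4, Ighm averaged 9.09 on exercised ERRα-null and 11.67 on exercised wild-type arrays, and 10.40 and 11.81 on the sedentary ones. On the exercised arrays, in the same order, Cd79a averaged 5.22 and 5.13, Cd79b 4.87 and 5.02, and Ms4a1 3.67 and 3.62. For genotype after exercise, 1 of the 3 tested B cell markers was called lower by limma. The mean of 5 macrophage markers ran from 6.81 to 6.94 and 6.94 to 7.18 on the exercised ERRα-null and wild-type arrays, and from 6.69 to 6.98 and 6.91 to 7.24 on the sedentary ones. One of the 5, Cd14, was called for exercise in wild-type muscle (1.01, limma adjusted p = 0.0226), at 6.80 to 7.46 on exercised and 5.81 to 6.28 on sedentary arrays, beside 0.49 in ERRα-null muscle (adjusted p = 0.344). Another, Csf1r, had a difference of −0.47 in wild-type muscle (limma adjusted p = 0.156). In ERRα-null muscle Csf1r averaged 7.33 on exercised and 7.71 on sedentary arrays. For exercise averaged over genotypes, 1 of the 5 macrophage markers was called higher by limma and 1 lower. The part of these other transcripts in the results was not tested. Calls of the 10 genes and of the list genes named that were lost without these 3 Xist-positive arrays or without the 3 of high Cd79a are marked as such. In whole muscle, more RNA per cell and more cells of a type cannot be told apart.

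Exercise came with higher levels of 5 of the 10 genes in wild-type muscle: Egr1, Csrnp1, Btg2, Klf6 and Myc. In ERRα-null muscle, 9 of the 10 differences were above 0 as well, but none passed the test. The genes are taken up in turn below, first the DNA-binding EGR proteins, then CSRNP1, BTG2, KLF6 and MYC, and last the IER genes. A gene was called at a limma adjusted p under 0.05, and values after ± are standard errors unless SD is written.

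Egr1 encodes a zinc finger transcription factor that binds GC-rich sites and is a standard marker of growth factor and calcium signalling. Its log2 level was 7.89, 7.92 and 7.18 on the exercised ERRα-null arrays and 8.59, 7.68 and 7.72 on the exercised wild-type arrays, against 6.95, 6.97 and 6.47 on the sedentary ERRα-null and 6.10, 6.27 and 6.87 on the sedentary wild-type arrays. In each genotype every exercised array stood above every sedentary one, and the 2 genotypes overlapped in both states. In wild-type muscle Egr1 rose 3.00-fold with exercise, a log2 difference of 1.58 ± 0.28 (limma adjusted p = 0.00941). In ERRα-null muscle the difference was 0.87 ± 0.28, or 1.82-fold, and did not pass (limma adjusted p = 0.216).

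Egr2, also known as Krox20, encodes the EGR protein needed for myelination by Schwann cells. Its level was 6.54, 6.69 and 6.57 on the exercised ERRα-null and 6.52, 6.88 and 6.73 on the exercised wild-type arrays, against 6.28, 6.37 and 6.02 on the sedentary ERRα-null and 6.25, 6.16 and 6.34 on the sedentary wild-type arrays. All 6 exercised arrays exceeded all 6 sedentary ones. The step was small, at 0.38 ± 0.12 in ERRα-null muscle (limma adjusted p = 0.186) and 0.46 ± 0.12 in wild-type muscle (adjusted p = 0.0507), and neither passed alone. Averaged over the genotypes, Egr2 rose by 0.42 ± 0.08 (limma adjusted p = 0.00948), a call that was lost without the Xist-positive arrays (0.39, adjusted p = 0.199) and without those of high Cd79a (0.44, adjusted p = 0.0788).

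The promoter of Egr2 is shown because it holds the CArG box, the letters CC, then 6 of A or T, then GG, that serum response factor binds. The match lies at position −72 from each of a pair of its annotated start sites on chromosome 10. Both are given with 10 bases on each side, 5′ to 3′ on the plus strand of RefSeq GRCm38.p6, with the box in capitals, at chr10:67537484-67537513 and chr10:67537787-67537816.
Egr2 upstream start: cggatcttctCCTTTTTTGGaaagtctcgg
Egr2 downstream start: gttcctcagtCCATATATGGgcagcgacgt
Of all 32851 RefSeq promoter windows, which run from 250 bases before a start to 50 bases from it on, 1.63% held a CArG box on either strand. Windows were available for 6 of the 10 genes, Egr2, Ier3, Ier5, Csrnp1, Btg2 and Klf6, and Egr2 was the 1 of these with a match. A gene counted as matched if any of its windows held the motif, and Egr2 has several windows. The shares are per window, over 32851 windows of 27025 genes, so the counts of genes cannot be set against them.

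Egr3, an EGR protein needed for the formation of muscle spindles, was at 6.20, 6.28 and 5.83 on the exercised ERRα-null and 5.85, 6.11 and 5.98 on the exercised wild-type arrays, against 6.13, 5.88 and 5.47 on the sedentary ERRα-null and 5.67, 6.07 and 5.96 on the sedentary wild-type arrays. The 4 groups overlapped throughout. The exercise difference was 0.28 ± 0.17 in ERRα-null muscle (limma adjusted p = 0.531) and 0.08 ± 0.17 in wild-type muscle (adjusted p = 0.876), so that within this family of 3 the size of the wild-type difference fell in the order Egr1, Egr2, Egr3.

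Csrnp1 encodes a cysteine- and serine-rich nuclear protein that acts as a transcriptional activator. It was at 6.43, 6.53 and 6.25 on the exercised ERRα-null and at 7.21, 6.97 and 7.11 on the exercised wild-type arrays, against 5.74, 5.91 and 5.95 on the sedentary ERRα-null and 5.83, 6.01 and 5.47 on the sedentary wild-type arrays. The 3 exercised wild-type arrays were the highest, the 3 exercised ERRα-null arrays lay between them and the sedentary ones without overlap, and the sedentary genotypes overlapped. Csrnp1 rose 2.51-fold with exercise in wild-type muscle, by 1.33 ± 0.14 (limma adjusted p = 0.000174). In ERRα-null muscle the difference was 0.54 ± 0.14, or 1.45-fold, and did not pass (limma adjusted p = 0.116).

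Btg2 encodes an antiproliferative protein that recruits the CCR4-NOT deadenylase to mRNAs and is a target of p53. Its level was 7.98, 8.13 and 7.61 on the exercised ERRα-null and 8.56, 7.86 and 8.27 on the exercised wild-type arrays, against 7.11, 7.88 and 7.45 on the sedentary ERRα-null and 6.44, 6.65 and 7.01 on the sedentary wild-type arrays. All sedentary wild-type arrays lay below all others, and the exercised and sedentary ERRα-null arrays overlapped. Btg2 rose 2.89-fold with exercise in wild-type muscle, by 1.53 ± 0.23 (limma adjusted p = 0.00282), and the difference in ERRα-null muscle was 0.43 ± 0.23 (adjusted p = 0.454).

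Csrnp1 and Btg2 kept the wild-type call in 23 of the 23 alternatives run, and 180 bases before a start of each are shown for that reason. Both genes lie on the minus strand, and the sequences run 5′ to 3′ on that strand from position −180 to −1 of RefSeq GRCm38.p6, at chr1:134079156-134079335 for Btg2 and chr9:119984743-119984922 for the most upstream start of Csrnp1. Capitals in Btg2 mark the palindromic cAMP response element TGACGTCA at position −166, which CREB binds. Capitals in Csrnp1 mark the half-site TGACG, read on the opposite strand, at position −142.
Btg2: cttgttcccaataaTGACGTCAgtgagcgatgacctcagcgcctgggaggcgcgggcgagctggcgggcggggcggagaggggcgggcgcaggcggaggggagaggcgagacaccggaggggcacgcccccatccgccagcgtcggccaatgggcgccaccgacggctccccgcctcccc
Csrnp1: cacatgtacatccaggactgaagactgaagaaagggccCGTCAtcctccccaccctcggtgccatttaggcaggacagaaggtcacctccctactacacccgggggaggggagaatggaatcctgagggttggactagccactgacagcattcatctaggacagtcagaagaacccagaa
The full element was present in 1.79% of all windows and, of the 6 genes, in Btg2. The half-site, which the full element contains, was present in 20.8% of all windows and in at least 1 window each of Btg2, Csrnp1 and Egr2. Csrnp1 and Egr2 have several windows, so this count of genes cannot be set against the share of windows. The EGR sites GCGGGGGCG and GCGTGGGCG (3.47% of windows) and the ERR element TCAAGGTCA (0.423%) were searched on both strands too, and these letters are not in the windows of the 6 genes.

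Klf6, a zinc finger factor of the Krüppel-like family, was at 8.54, 8.54 and 8.74 on the exercised ERRα-null and 8.68, 8.78 and 8.60 on the exercised wild-type arrays, against 8.28, 8.74 and 8.59 on the sedentary ERRα-null and 8.15, 8.19 and 8.15 on the sedentary wild-type arrays. The sedentary wild-type arrays were tightly grouped below the other 9. In wild-type muscle Klf6 rose 1.44-fold, by 0.52 ± 0.11 (limma adjusted p = 0.0231), and in ERRα-null muscle the difference was 0.07 ± 0.11 (adjusted p = 0.832). The wild-type call was lost when exercised replicate 1 or 2 or any 1 of the sedentary wild-type replicates was left out (limma adjusted p from 0.0576 to 0.0771), with differences of 0.47 to 0.54, and also without the Xist-positive arrays (0.0761) or of high Cd79a (0.0835).

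Myc encodes the growth-promoting transcription factor that pairs with MAX. Its level was 8.45, 8.28 and 8.16 on the exercised ERRα-null and 8.55, 8.14 and 7.97 on the exercised wild-type arrays, against 7.86, 7.59 and 7.64 on the sedentary ERRα-null and 7.28, 7.71 and 7.47 on the sedentary wild-type arrays. All 6 exercised arrays exceeded all 6 sedentary ones, and the genotypes overlapped in both states. Myc rose 1.66-fold in wild-type muscle, by 0.73 ± 0.15 (limma adjusted p = 0.0228), and the difference in ERRα-null muscle was 0.60 ± 0.15 or 1.51-fold, without passing (adjusted p = 0.122). When only the wild-type arrays were fitted, Myc did not pass in wild type (limma adjusted p = 0.0919). The wild-type call was lost without exercised replicate 1 (0.57, limma adjusted p = 0.0706), without sedentary replicate 1 (0.63, adjusted p = 0.0678), without sedentary replicate 3 (0.73, adjusted p = 0.0757) and without the arrays of high Cd79a (0.94, adjusted p = 0.0589).

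Ier5, whose product promotes the activity of the heat shock factor HSF1, was at 6.94, 7.05 and 6.90 on the exercised ERRα-null and 7.45, 7.12 and 6.91 on the exercised wild-type arrays, against 6.77, 6.72 and 6.84 on the sedentary ERRα-null and 6.34, 6.87 and 6.52 on the sedentary wild-type arrays. The exercised arrays all exceeded the sedentary ones, by a narrow margin. The difference was 0.19 ± 0.15 in ERRα-null muscle (limma adjusted p = 0.620) and 0.58 ± 0.15 in wild-type muscle (adjusted p = 0.0543). It passed in wild-type muscle without exercised replicate 3 (0.70, limma adjusted p = 0.0351) and without sedentary replicate 2 (0.73, adjusted p = 0.0268). These held the lowest exercised and the highest sedentary wild-type value, so that leaving out either enlarges the difference by construction. When any 1 array was left out, the limma adjusted p in wild type ran from 0.0268 to 0.179.

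Ier2, a nuclear relative of Ier5, was at 5.90, 5.98 and 5.59 on the exercised ERRα-null and 6.05, 5.62 and 6.04 on the exercised wild-type arrays, against 5.45, 6.30 and 5.91 on the sedentary ERRα-null and 5.65, 5.58 and 5.63 on the sedentary wild-type arrays. The widest spread was that of the sedentary ERRα-null arrays, which covered the range of all the others. The exercise difference was −0.07 ± 0.19 in ERRα-null muscle (limma adjusted p = 0.919) and 0.28 ± 0.19 in wild-type muscle (adjusted p = 0.522).

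Ier3, whose product prolongs ERK signalling and affects cell survival, was at 7.16, 7.31 and 7.09 on the exercised ERRα-null and 6.999, 7.23 and 7.02 on the exercised wild-type arrays, against 6.96, 7.02 and 7.28 on the sedentary ERRα-null and 7.08, 7.41 and 7.07 on the sedentary wild-type arrays. All 4 groups overlapped. The exercise difference was 0.10 ± 0.12 in ERRα-null muscle (limma adjusted p = 0.761) and −0.10 ± 0.12 in wild-type muscle (adjusted p = 0.739), the single value below 0 among the 10 in wild type.

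**Figure D1:**
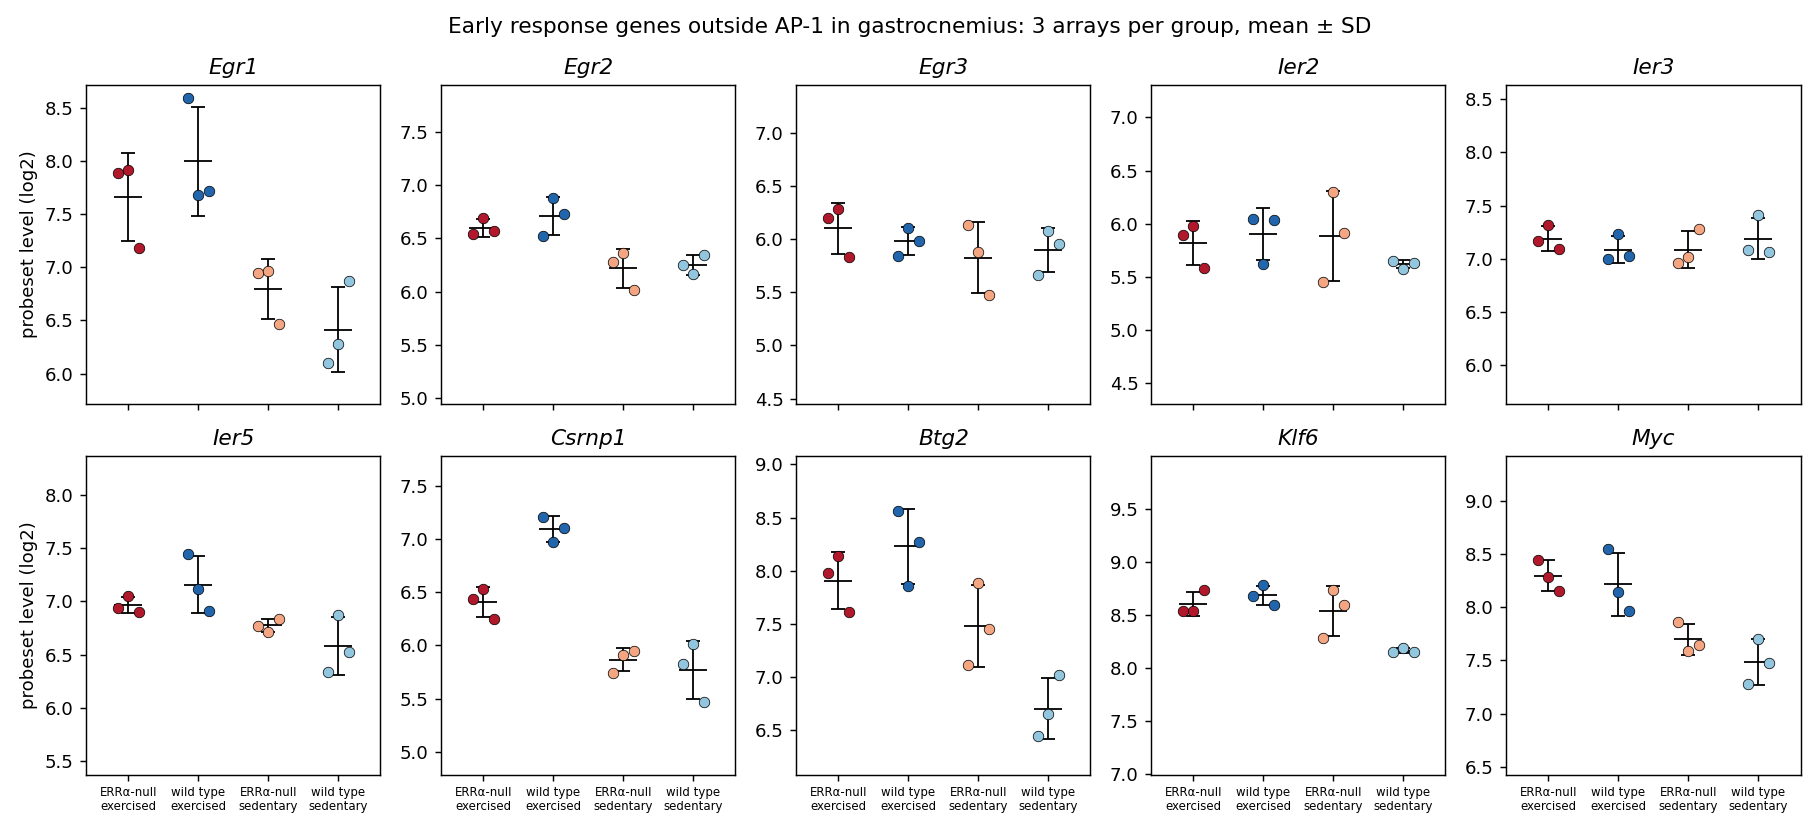
Probeset level (log2, vertical axis) of the 10 genes on each of the 12 arrays, with the groups exercised ERRα-null, exercised wild type, sedentary ERRα-null and sedentary wild type from left to right, 1 point per array and a bar for the mean ± SD (n = 3). Csrnp1 stood at 6.25 to 6.53 on exercised ERRα-null and 6.97 to 7.21 on exercised wild-type arrays, above the sedentary arrays at 6.01 or less, while the groups of Ier3 overlapped throughout.

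Counted over the 10 genes, exercise in ERRα-null muscle gave no call by limma, against 0.383% of all 13308 tested genes called higher. At an unadjusted p under 0.05 there were 4 of 10 (Egr1, Egr2, Csrnp1 and Myc), against 13.1% of all genes. In wild-type muscle 5 of 10 were called higher and none lower, against 2.22% of all genes called higher, and 7 of 10 had an unadjusted p under 0.05, against 16.1%. Exercised and sedentary arrays did not overlap for 5 genes in ERRα-null muscle (background 19.0% of all genes in either direction) and for 7 in wild-type muscle (background 21.0%), with the exercised arrays above in each case. The median log2 difference of the 10 was 0.33 in ERRα-null and 0.55 in wild-type muscle, while that of all tested genes was −0.0114 and −0.0089.

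The number called in wild type ranged from 3 to 6 when 1 array was left out, and it was 3 both without sedentary wild-type replicate 1 (Egr1, Csrnp1 and Btg2 remaining) and without sedentary wild-type replicate 3 (the same genes). It was 4 without the Xist-positive arrays and 3 without those of high Cd79a, which leave 1 sedentary wild-type array. Egr1 kept its call in 22 of 23 alternatives.

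**Figure D2:**
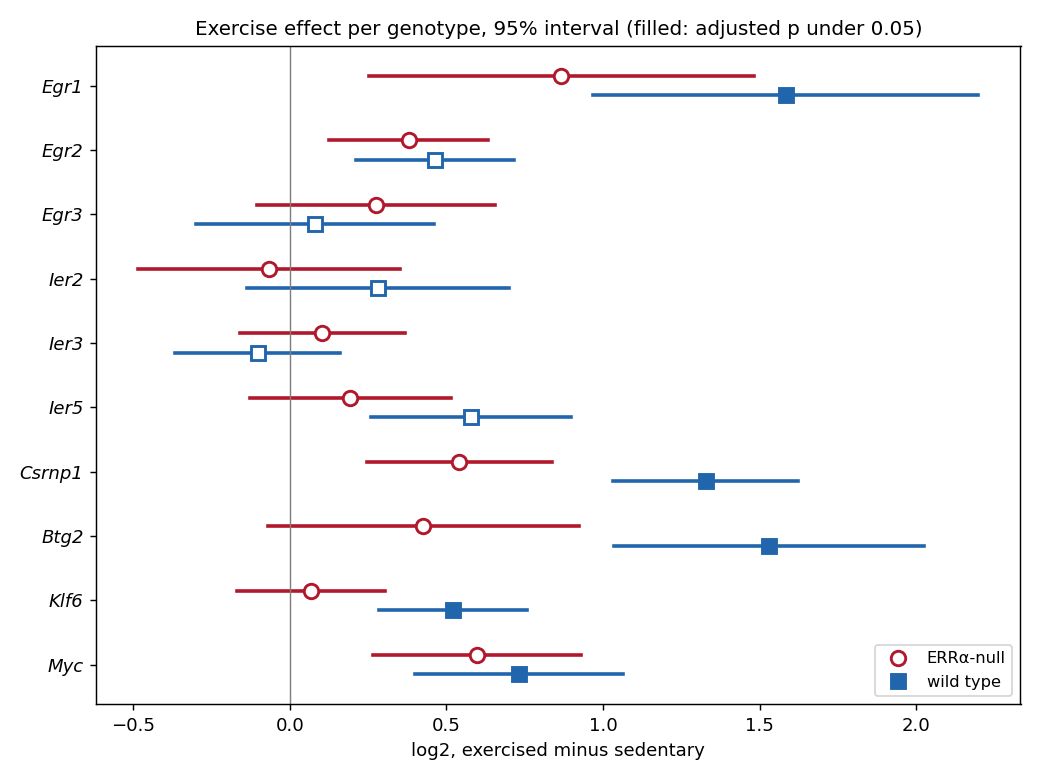
Exercise difference (log2, exercised minus sedentary, horizontal axis) of the 10 genes in ERRα-null and wild-type muscle, with 95% confidence intervals from limma. Filled markers passed at an adjusted p under 0.05, and the wild-type values of Egr1, Btg2 and Csrnp1 lay at 1.58, 1.53 and 1.33, against 0.87, 0.43 and 0.54 in ERRα-null muscle.

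Averaged over both genotypes, 7 of the 10 genes rose after exercise, against 3.14% of all genes called higher. Egr1 rose 2.34-fold (limma adjusted p = 0.00353), Btg2 1.97-fold (0.00364), Csrnp1 1.91-fold (0.000142) and Myc 1.59-fold (0.00344). Egr2 rose 1.34-fold, as given above, Ier5 1.31-fold (limma adjusted p = 0.0468) and Klf6 1.23-fold (0.0396). Over the 6 exercised and 6 sedentary arrays, 5 genes did not overlap, namely Egr1, Egr2, Ier5, Csrnp1 and Myc, against 1.99% of all genes. The values of Egr3 (0.18, adjusted p = 0.428), Ier2 (0.11, 0.685) and Ier3 (0.00, 0.998) did not pass.

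Egr1, Csrnp1 and Myc kept the averaged call in 21 of the 21 alternatives run, and Btg2 lost it without the Xist-positive arrays, where the difference was 1.002 beside 0.98 on all arrays (limma adjusted p = 0.0756). Ier5 held it in 6 of 21 and Klf6 in 8 of 21. The call of Ier5 was lost when any 1 array was left out other than exercised wild-type replicate 3 or sedentary wild-type replicate 2 (limma adjusted p of 0.0683 to 0.114). That of Klf6 was lost without exercised ERRα-null replicate 2 or 3, sedentary ERRα-null replicate 3, or any 1 of the 6 wild-type arrays (adjusted p of 0.0503 to 0.102). Without the Xist-positive arrays the difference was 0.44 for Ier5 (limma adjusted p = 0.194) and 0.28 for Klf6 (0.286), and without those of high Cd79a it was 0.50 for Ier5 (0.0577) and 0.24 for Klf6 (0.171).

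The next question was whether the exercise difference itself depended on genotype. Of the 10 differences, 8 were smaller in the mutants than in wild type, with a median interaction of −0.37 against −0.0024 over all tested genes. None passed by limma, where 0.00751% of all genes, a single gene, were called, and 3 of 10 had an unadjusted p under 0.05, against 5.12% of all genes. Those 3 were Btg2 with an interaction of −1.10 (95% interval −1.80 to −0.40, limma adjusted p = 0.782), Csrnp1 with −0.79 (−1.20 to −0.37, adjusted p = 0.603) and Klf6 with −0.45 (−0.79 to −0.12, adjusted p = 0.910). The interval of Egr1 ran from −1.59 to 0.15 around −0.72, that of Ier5 from −0.84 to 0.07 around −0.39, that of Egr2 from −0.44 to 0.27 around −0.08 and that of Myc from −0.60 to 0.33 around −0.14. The calls in wild type alone do not show a response that differs between genotypes, since the test of that difference gave 0 calls. On simulated data that test recovered 12% of 50 differences of 0.5 and 68% of 50 differences of 1 on the log2 scale. The 0 calls therefore do not show equal responses.

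At rest, most of the genes stood slightly higher in ERRα-null muscle, and after exercise most stood slightly lower. Among sedentary mice 7 of 10 differences between ERRα-null and wild type were above 0, with a median of 0.20, while 49.6% of all tested genes were above 0. None was called by limma (background 0.0827% of all genes in either direction), and 2 had an unadjusted p under 0.05, against 8.22% of all genes. These were Btg2, 1.72-fold higher with a log2 difference of 0.78 ± 0.23 (limma adjusted p = 0.303), and Klf6, at 0.37 ± 0.11 (adjusted p = 0.302). They were also the 2 genes whose ERRα-null arrays all lay above the wild-type arrays, against 6.91% of all genes. The other 8 differences ran from −0.10 for Ier3 to 0.38 for Egr1. The sedentary wild-type arrays enter both this comparison and the exercise difference in wild type.

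After exercise, 7 of 10 differences between ERRα-null and wild type were below 0, with a median of −0.10, while 50.4% of all tested genes were above 0. None was called by limma (0.286% of all genes were called lower), and 1 had an unadjusted p under 0.05, against 10.4% of all genes. This gene was Csrnp1, with a log2 difference of −0.69 ± 0.14 (95% interval −0.99 to −0.39), or 0.62 times the wild-type level, at a limma adjusted p of 0.0558. It was the 1 gene of the 10 whose ERRα-null arrays all lay below the wild-type arrays, against 9.31% of all genes. Csrnp1 passed without sedentary ERRα-null replicate 1 (limma adjusted p = 0.0476), without sedentary wild-type replicate 3 (0.0248), without the arrays of high Cd79a (0.0377) and under a stricter filter (0.0404). These settings leave the exercised arrays and the difference as they were and alter the estimate of the spread or the number of genes tested. Without the 3 Xist-positive arrays the difference was −0.66 (adjusted p = 0.520). The other 9 differences ran from −0.34 for Egr1 to 0.12 for Egr3.

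**Figure D3:**
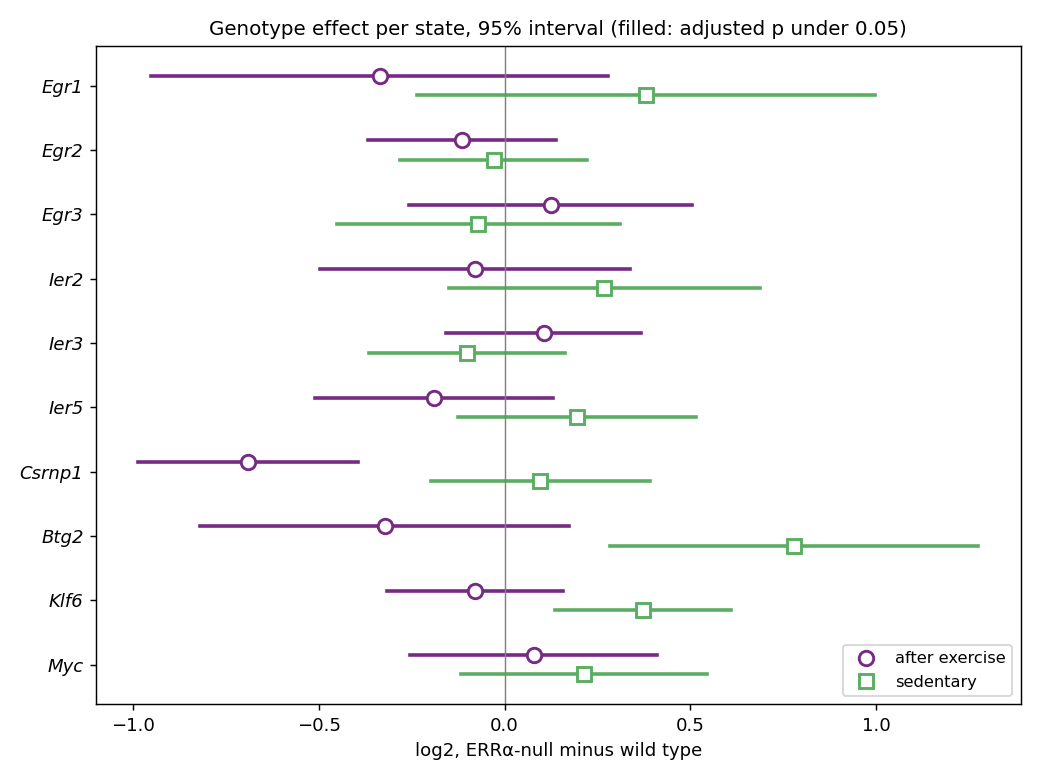
Genotype difference (log2, ERRα-null minus wild type, horizontal axis) of the 10 genes after exercise and at rest, with 95% confidence intervals from limma. No value passed at an adjusted p under 0.05, and Csrnp1 after exercise (−0.69) and Btg2 at rest (0.78) lay farthest from 0.

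Averaged over both states, no gene of the 10 was called by limma for genotype (1.43% of all genes in either direction). Csrnp1 had the single unadjusted p under 0.05 (12.4% of all genes), at −0.30 ± 0.10 (limma adjusted p = 0.190), and it passed without sedentary wild-type replicate 3 (−0.37, adjusted p = 0.0443).

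Read as an order of the 4 group means, Egr1, Ier5, Csrnp1, Btg2 and Klf6 shared the same one: exercised wild type highest, then exercised ERRα-null, sedentary ERRα-null and sedentary wild type. None of the 3 steps between neighbours in this order passed for any of these 5 genes. Exercised wild type was the highest group for 7 genes and exercised ERRα-null for the other 3, Egr3, Ier3 and Myc. Sedentary wild type was the lowest for 7, sedentary ERRα-null for Egr2 and Egr3, and exercised wild type for Ier3.

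The genes also differed in how they moved together from array to array. Over the 12 arrays the Pearson correlation between pairs of the 10 genes had a median of 0.533 over 45 pairs, from −0.219 to 0.908, the highest being Egr1 with Btg2. These values hold the group differences, and over deviations from the group means the median was 0.075. High values remained within groups for Ier2 with Btg2 (0.85), Ier5 with Myc (0.846) and Egr1 with Btg2 (0.714), across points that share arrays and the deposited normalization. On sedentary ERRα-null arrays, for example, Ier2, Btg2 and Klf6 were all lowest on replicate 1, the array with high Svs5 and Cd79a, and highest on replicate 2, where Btg2 reached 7.88 and overlapped the exercised arrays. The mean of 6 liver markers on these arrays was 7.59, 8.35 and 5.46, so that replicate 2 was the highest in liver transcripts. The part of the other tissues' RNA in these values was not tested. On exercised ERRα-null replicate 3, 1 of the 10 genes, Klf6, lay above its group mean, and the mean deviation was −0.16.

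Against the average of the other members over 12 arrays, the correlation was 0.92 for Egr1 and Btg2, 0.87 for Myc, 0.85 for Ier5, 0.84 for Csrnp1, 0.74 for Egr2 and 0.71 for Klf6. It was 0.43 for Ier2, 0.35 for Egr3 and −0.10 for Ier3, the genes without an exercise call. Among the other tested genes, those most like the average of the 10 over the 12 arrays were Gem (0.97), Tgm2 (0.96), the predicted locus Gm13889 (0.96), Ucp3, Fos, Noct, Mt2 and Sox9 (all 0.94). Gem encodes a small GTPase that restrains calcium channels, Ucp3 a mitochondrial carrier of muscle and Mt2 a metallothionein. The least like were Slc46a3 (−0.95), Mccc2 (−0.925) and Inmt (−0.91). These are descriptions over arrays that share the group differences.

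Among the relatives of the 10 genes, Klf10 was called in wild type. For this and the following lists, the shares of all tested genes called higher were 0.383% in ERRα-null and 2.22% in wild-type muscle. Averaged over genotypes that share was 3.14%. A single call in a list is not read as a result about the list. Of 17 tested genes among the remaining EGR, IER, CSRNP, BTG/TOB, KLF and MYC family members, exercise in ERRα-null muscle gave no call by limma and a median of 0.04, and exercise in wild-type muscle gave 1, with a median of 0.14. That gene was Klf10, a TGF-beta-induced repressor, which rose by 1.27 ± 0.24 in wild-type muscle (limma adjusted p = 0.0122) beside 0.17 in ERRα-null muscle. Its call was lost without exercised wild-type replicate 1 (1.15, adjusted p = 0.0567), without sedentary wild-type replicate 2 (1.24, adjusted p = 0.05) and without the Xist-positive arrays (1.30, adjusted p = 0.0512). Klf5 had differences of 0.80 in ERRα-null and 0.67 in wild-type muscle (limma adjusted p of 0.183 and 0.186), and without exercised wild-type replicate 2 it passed in both (0.80, adjusted p = 0.00725, and 1.05, adjusted p = 0.000952). On that array Klf5 was at 7.33, against 8.44 and 8.49 on the other exercised wild-type arrays. Leaving it out raises the wild-type difference by construction and left the ERRα-null difference as it was. The mean of 5 endothelial markers was 7.60 there, against 7.87 to 8.36 on all other arrays, and its part in the Klf5 value was not tested. Tob1, at 0.34 in wild-type muscle (limma adjusted p = 0.0504), passed without sedentary ERRα-null replicate 1 (0.0066). Without the arrays of high Cd79a its difference was 0.43. Its call averaged over genotypes was lost with no low-value filter (limma adjusted p = 0.0557), by eBayes without the trend (0.0622) and with each array centred on its median (0.113). That call was also lost without any 1 exercised array or any 1 sedentary wild-type array. Averaged over genotypes, Klf10, Klf5 and Tob1 were called higher, and this count of 3 was 0 without exercised ERRα-null replicate 2, exercised wild-type replicate 1, sedentary wild-type replicate 2 or the Xist-positive arrays, and 1 without exercised wild-type replicate 3 or the arrays of high Cd79a.

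Of 15 tested genes for serum response factor, its partners and CREB regulators, 1 rose in wild-type muscle and none passed in ERRα-null muscle, with medians of −0.04 in ERRα-null and −0.03 in wild-type muscle. This was Crem, which encodes activators and the inducible repressor ICER, at 0.64 ± 0.12 (limma adjusted p = 0.0119) beside 0.29 in ERRα-null muscle. The call was lost without sedentary wild-type replicate 3 (0.59, adjusted p = 0.058), and without the Xist-positive arrays (0.0584) or of high Cd79a (0.170). Mrtfa, a coactivator of serum response factor named here after its values were seen, had a difference of −0.17 in ERRα-null and −0.72 in wild-type muscle (limma adjusted p of 0.795 and 0.124). On exercised ERRα-null replicate 1 it was at 8.42, against 7.31 and 7.32 on the other exercised ERRα-null arrays. Without that array the difference passed at −0.54 in ERRα-null (limma adjusted p = 0.0355) and −0.72 in wild-type muscle (0.00117). Leaving out that high value lowers the ERRα-null difference by construction. The wild-type difference stayed as it was, and the estimate of the spread changed.

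Among 27 feedback inhibitors of the signals behind early genes, such as dual-specificity phosphatases and SOCS proteins, 1 rose in ERRα-null and 2 in wild-type muscle. Socs3, a brake on cytokine receptors, rose in both, by 1.28 ± 0.18 in ERRα-null (limma adjusted p = 0.00694) and 0.99 ± 0.18 in wild-type muscle (adjusted p = 0.0119). Dusp5, a nuclear ERK phosphatase, rose by 0.75 ± 0.13 in wild-type muscle (limma adjusted p = 0.00729), beside 0.62 ± 0.13 in ERRα-null muscle (adjusted p = 0.0548), where it passed without exercised wild-type replicate 2 (0.0158), under the stricter filter (0.0414) and with quantile normalization repeated (0.0433). Socs3 lost its wild-type call without exercised wild-type replicate 1 (0.93, limma adjusted p = 0.0537), and without the arrays of high Cd79a it passed in neither genotype (adjusted p of 0.0735 in ERRα-null and 0.159 in wild type). Dusp5 lost its wild-type call without the Xist-positive arrays (0.0668) or of high Cd79a (0.171).

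The immediate early genes of other families included 2 with large differences in both genotypes, Nr4a3 and Atf3. Of 27 tested, 2 rose and 1 fell in ERRα-null muscle, with a median of 0.18, and 12 rose in wild-type muscle, with a median of 0.56. The nuclear receptor gene Nr4a3 rose by 3.14 ± 0.22 in ERRα-null (limma adjusted p = 7.55e-05) and 5.20 ± 0.22 in wild-type muscle (adjusted p = 2.18e-07), and the stress factor Atf3 rose by 2.32 ± 0.30 in ERRα-null (0.00303) and 3.01 ± 0.30 in wild-type muscle (0.000139). The kinase gene Sik1 rose by 2.36 ± 0.26 and Ppp1r15a, which restores translation after stress, by 0.85 ± 0.10 in wild-type muscle (limma adjusted p of 0.000311 and 0.000629). The gene that fell in ERRα-null muscle was Sgk1, by 0.47, which did not pass without exercised replicate 2 or 3 or sedentary replicate 1 or 3 (limma adjusted p of 0.0617 to 0.138), nor without the Xist-positive arrays (0.417) or those of high Cd79a (0.117). The wild-type count of 12 was 4 without the arrays of high Cd79a, and Atf3 passed in ERRα-null muscle neither without those (adjusted p = 0.0561) nor without the Xist-positive arrays (0.0685).

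**Figure D4:**
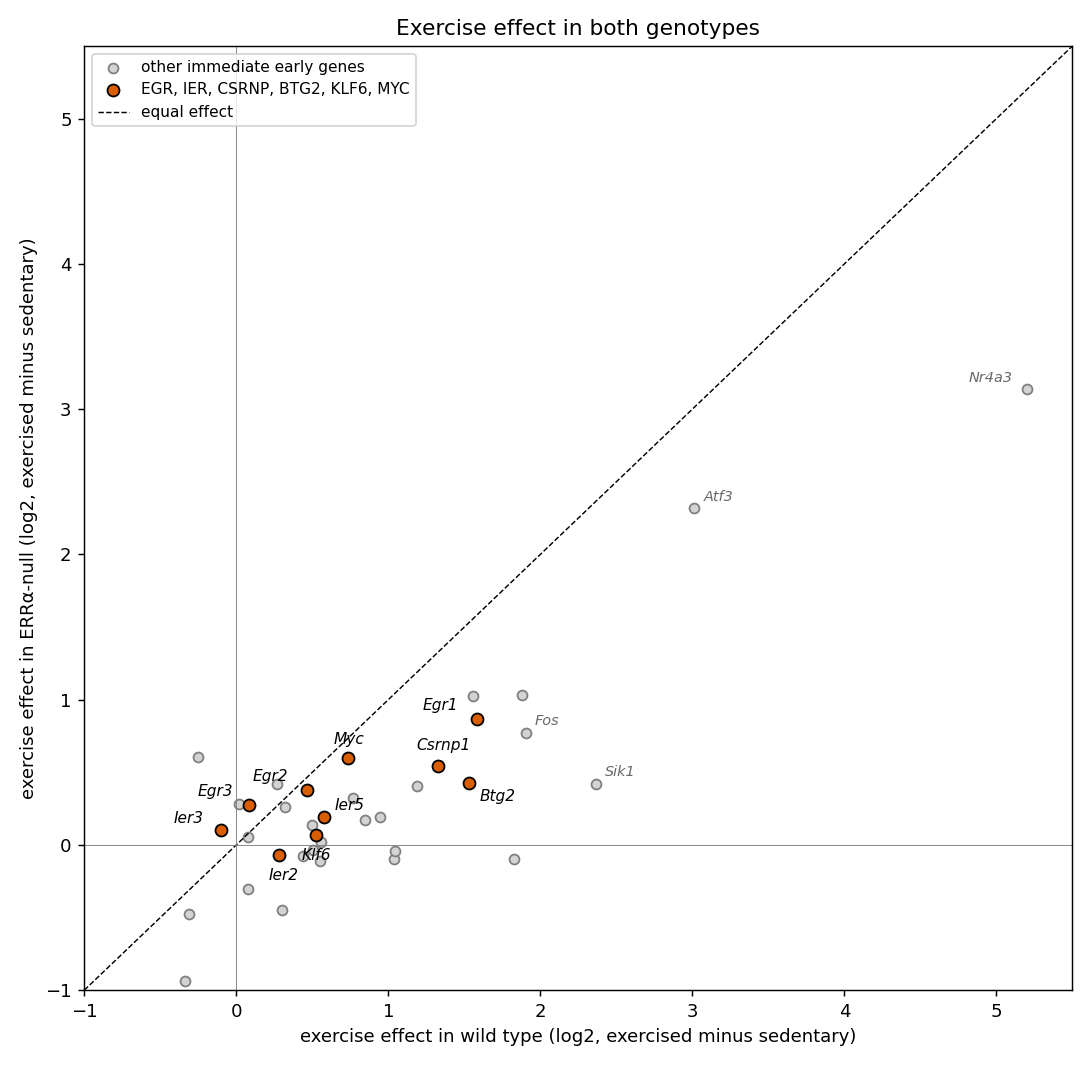
Exercise difference (log2, exercised minus sedentary) in ERRα-null muscle (vertical axis) against that in wild-type muscle (horizontal axis) for the 10 genes (orange) and 27 other immediate early genes (grey), with a dashed line of equal values. Of the 10 genes, 8 lay under the line, Egr3 and Ier3 above it, and Nr4a3 lay farthest out at 3.14 in ERRα-null and 5.20 in wild-type muscle.

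The last lists concern MYC itself. None of 9 tested MYC partners, such as the MAX and MXD genes, was called by limma for exercise in either genotype alone. Mxd4, a MAX-binding antagonist of MYC, had a difference of −0.48 ± 0.10 in ERRα-null (limma adjusted p = 0.0562) and −0.30 ± 0.10 in wild-type muscle (0.155). In ERRα-null muscle it passed without exercised wild-type replicate 2 (0.047), under the stricter filter (0.0414) and with the replicate block (0.0428). Averaged over genotypes it fell by 0.39 (limma adjusted p = 0.00682), a call lost without the Xist-positive arrays (0.152) or those of high Cd79a (0.0881). Of 20 tested MYC target genes, none was called in ERRα-null muscle (median 0.09) and 1 in wild-type muscle (median 0.10), the nucleolar gene Gnl3, which rose by 0.60 ± 0.11 (limma adjusted p = 0.0093) beside 0.26 in ERRα-null muscle. The Gnl3 call was lost without the Xist-positive arrays (0.63, adjusted p = 0.0642).

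The interaction passed by limma for none of the genes named from these lists. Its value was −1.10 for Klf10 (limma adjusted p = 0.818), −0.35 for Crem (0.986), −0.13 for Dusp5 (0.999), −1.94 for Sik1 (0.329), −0.67 for Ppp1r15a (0.430) and −0.34 for Gnl3 (0.959). It was 0.29 for Socs3 (limma adjusted p = 0.999), −0.695 for Atf3 (0.997), −0.16 for Sgk1 (0.999), 0.13 for Klf5 (0.999), −0.21 for Tob1 (0.997), 0.55 for Mrtfa (0.997) and −0.18 for Mxd4 (0.999). That of Nr4a3 was −2.06 (limma adjusted p = 0.139), and it passed without exercised ERRα-null replicate 1 (−1.78, adjusted p = 0.0271), without exercised ERRα-null replicate 2 (−2.33, 0.0102) and without the Xist-positive arrays (−2.57, 0.0319).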

How the data were processed

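The authors deposited a log2 value for every probeset on every array. The submitters' processing notes name RMA, Transcriptome Analysis Console and Affymetrix Expression Console. RMA corrects background, puts the arrays on a common distribution and summarises probes, so differences are relative to the bulk of transcripts. The sources used here give neither versions nor a genome build. Array medians ran from 5.15 to 5.26 and correlations between arrays from 0.970 to 0.993. Arrays have no read depth, and their number sets the precision.

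Of 41345 probesets, 23521 carry 1 symbol in the platform table, 1814 several and 16010 none, and 23328 of the first matched RefSeq (GRCm38.p6). The probeset with the highest mean stood for a gene. The 40% of 22180 genes with the lowest mean, under 5.32, were not tested, leaving 13308. A linear model of 4 group means over all 12 arrays, with 8 residual degrees of freedom, was fitted with limma 3.58.1 in R 4.3.3, with eBayes and an intensity trend, and p-values (two-sided) were adjusted by Benjamini-Hochberg in each of 7 comparisons. The code was tested on simulated data.

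The 10 genes and the gene lists were chosen with earlier results of these data known. Named were the 10 genes, up to 4 called genes of a list by smallest p, and the 8 most and 3 least similar genes. Levels were not compared between genes, and motif matches are exact. Groups follow the titles. Deviations from the group means had r of 0.312, 0.207 and 0.174 between same-numbered exercised arrays of the 2 genotypes. For same-numbered exercised and sedentary wild-type arrays r was 0.269, 0.063 and 0.157. Between the other groups r was not above 0 for every number. Values for arrays of different numbers were not taken as a baseline. Whether a number marks a pair of samples was not tested, and the main model has no pairing.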

Additional observations from a re-analysis of the deposited data

How the results depend on the processing

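Over all alternatives run, no value that passed changed direction. For exercise in ERRα-null muscle, genotype at rest and the interaction, the count of the 10 genes called was 0 in every alternative. For exercise in wild type the count of 5 was 2 with the replicate number as a block on the compared arrays alone (5 with the block on all arrays), 3 without the arrays of high Cd79a, 3 to 6 when 1 array was left out, 6 by eBayes without the trend, and 7 both under the stricter filter and with quantile normalization repeated, Egr2 and Ier5 being those gained. For exercise averaged over genotypes the count of 7 was 3 without the Xist-positive arrays, 4 without those of high Cd79a and 5 to 6 when 1 array was left out. For genotype after exercise the count of 0 was 1 under the stricter filter and 1 without the arrays of high Cd79a, and 0 to 1 when 1 array was left out, and for genotype averaged over states it was 0 to 1. The gene was Csrnp1 each time. With the replicate number as a block on the exercised arrays, the limma adjusted p of Csrnp1 for genotype was 0.0502 and no call of the 10 genes changed. Sik1 passed in that fit (−0.78, adjusted p = 0.0203). On the wild-type arrays alone, without a block, 4 of the 10 genes were called for exercise and Myc did not pass (limma adjusted p = 0.0919). With the block on those arrays, Egr1 (limma adjusted p = 0.0914), Klf6 (0.067) and Myc (0.158) did not pass. The 2 sets of left-out arrays and the block on compared arrays were chosen after seeing the data. Without those sets some groups hold 1 array, whose spread is taken from the remaining groups. Centring each array on its median moved the averaged exercise difference of all genes by −0.0336, and it lost the calls of Ier5 (adjusted p = 0.0695) and Klf6 (0.0905). The files hold no detection calls, so that the distance of dim genes from background, such as Egr3 and Ier2 with all values at or under 6.30, is unknown.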
